A study of Mus musculus with 59 samples.

Results

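The voltage-gated sodium channel genes described here are 8 genes taken by name from the 51456 identifiers measured, 4 that code for pore-forming alpha subunits (Scn1a, Scn2a, Scn3a and Scn8a), 3 for beta subunits (Scn2b, Scn3b and Scn4b) and 1, Fgf14, for a cytoplasmic partner of the alpha subunits. All 8 had a mean above the minimum of 10 and were among the 16919 genes tested. The tissue was the prefrontal cortex of C57BL/6J mice of both sexes at postnatal day 25. Mice were heterozygous for Ank2 (HT), with 1 altered copy of the gene for ankyrin-B, or wild type (WT). From day 3 to day 24 their mothers had received fluoxetine, a serotonin reuptake inhibitor, lithium, a mood stabilizer, or vehicle, so that all pups, vehicle groups included, were dosed through milk. The groups were HT fluoxetine (n = 10), WT fluoxetine (n = 9), HT lithium (n = 10), WT lithium (n = 10), HT vehicle (n = 10) and WT vehicle (n = 10), with 5 libraries per sex except for WT fluoxetine males with 4. The labels do not say what the Ank2 alteration is, and they tie no library to a litter.

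Sodium channels open when the membrane depolarises and carry the inward current of the action potential. Each channel is 1 alpha subunit that holds the pore and the voltage sensors, joined by beta subunits, which set gating and act as adhesion molecules, and by fibroblast growth factor homologous factors on its intracellular tail. In cortical neurons the channels are concentrated at the axon initial segment and at nodes of Ranvier, where ankyrins tie them to the spectrin cytoskeleton. The alpha subunits change over development, as Scn3a recedes after birth and Scn8a replaces part of Scn2a along myelinated axons. Ankyrin-B, the product of Ank2, is a scaffold for sodium channels in dendrites.

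The values are normalized values: the authors' estimated read counts per gene, scaled per library to make libraries comparable. Their sum ran over 30.3 M to 33.8 M per library, at an estimated depth of 25.9 M to 36.5 M reads. Ank2 itself averaged 19578 ± 660.2 in HT vehicle libraries and 28471 ± 2077 in WT vehicle libraries (SD, n = 10 each), and over all groups no HT library exceeded 22813 and no WT library was under 23284. Cortical excitatory markers such as Slc17a7, at 34579.8 or more, were present in every library. The 11 of 12 striatum markers that passed the filter and the 7 olfactory bulb markers also had values, and their levels varied widely: the summed olfactory bulb markers ran over 233 to 2741 in HT lithium libraries and over 1252 to 10563 in WT vehicle libraries. In HT fluoxetine female replicate 2 the 7 choroid plexus markers summed to 78918, against at most 500.3 in the other libraries, and the 3 dentate gyrus markers to 7413, against at most 498.3. This library and WT fluoxetine male replicates 1 and 4 stood apart from the rest of their groups, and calls that change without them are given both ways. In whole tissue, fewer cells of a type and less RNA per cell cannot be told apart.

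Per kilobase of the longest annotated transcript, Scn2b and Scn2a were the most abundant of the 8 mRNAs and Scn3a the least. The level was 1786 ± 190.3 normalized units per kilobase for Scn2b, whose product is a beta subunit that is disulphide-linked to the alpha subunit, and 1535 ± 189.5 for Scn2a, the main alpha subunit of young excitatory neurons (SD, n = 59 each). Scn8a, the main alpha subunit of mature axon initial segments and nodes, was at 1184 ± 110.7, and Scn3b, a non-covalently bound beta subunit, at 1007 ± 167.3. Scn1a, the alpha subunit on which fast-spiking interneurons depend, was at 603.0 ± 71.3.

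Below these came Fgf14, at 350.5 ± 36.4, then Scn4b, a disulphide-linked beta subunit, at 318.5 ± 126.9, and Scn3a, an alpha subunit of the embryonic and newborn brain, at 238.2 ± 27.9. Neighbours in this order were mostly but not wholly apart. Scn2b exceeded Scn2a in 57 of 59 libraries, Scn8a exceeded Scn3b in 51, Fgf14 exceeded Scn4b in 42 and Scn4b exceeded Scn3a in 48. The other neighbours kept their order in all 59. With the median transcript length of each gene in place of the longest, Scn8a, whose median annotated transcript is 2.11 kilobases against 11.4 for the longest, moved to the top with 6418 per kilobase.

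**Figure D1:**
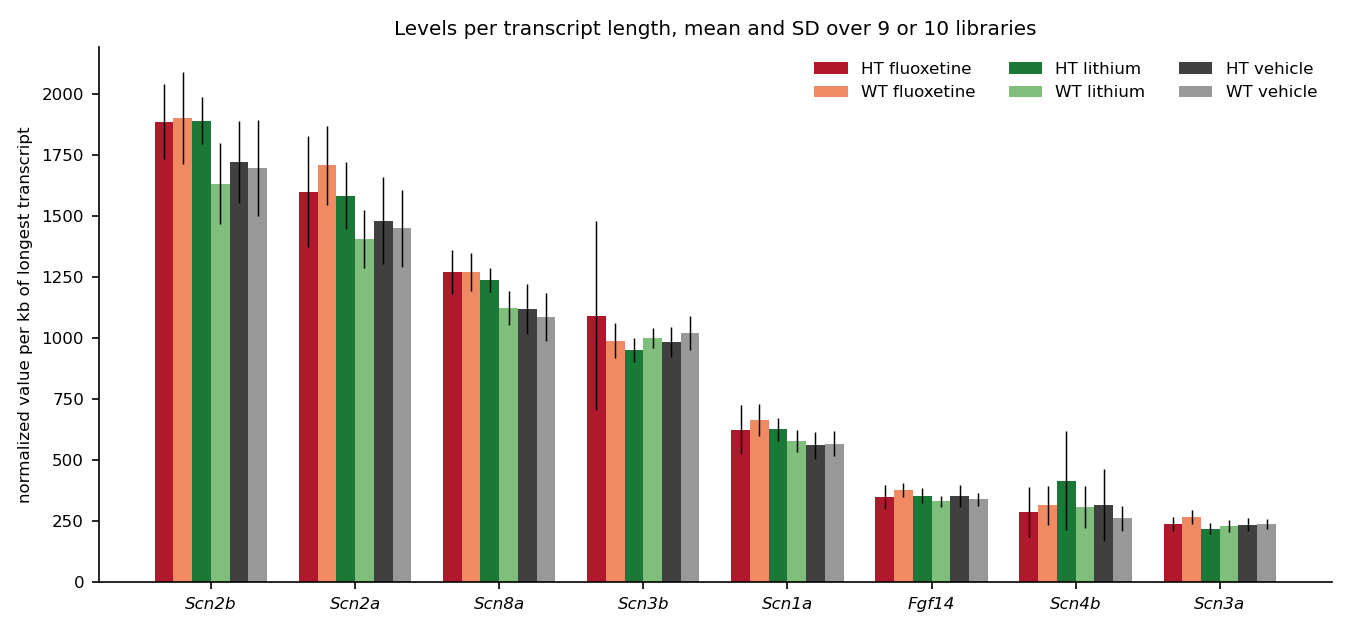
Normalized value per kilobase of the longest annotated transcript for the 8 genes in the 6 genotype and drug groups. Bars are means and lines the SD over 9 or 10 libraries, with Scn2b highest and Scn3a lowest over all libraries.

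Of the summed level of the 4 alpha subunits per kilobase of the longest transcript, Scn2a made up 43.0% ± 1.54, Scn8a 33.3% ± 1.59, Scn1a 16.9% ± 1.04 and Scn3a 6.75% ± 1.03 (SD, n = 59). Their order rests on that length, as by median transcript Scn8a was at 6418 per kilobase and Scn2a at 1824. These shares moved little between groups. The Scn8a share was 34.2% ± 2.39 in HT fluoxetine libraries and 32.98% ± 1.002 in HT vehicle libraries (SD, n = 10 each), and the Scn3a share 5.99% ± 0.43 in HT lithium and 7.05% ± 1.30 in HT vehicle libraries. The pairs Scn8a and Scn2a, which succeed each other along axons, and Scn1a and Scn3a, which rise and recede after birth, were each set as a log2 ratio and tested in 7 comparisons. None of the 14 exact permutation tests passed after adjustment. The smallest p belonged to Scn1a over Scn3a with lithium in HT mice, where the log2 ratio was 1.33 ± 0.17 in HT lithium and 1.06 ± 0.26 in HT vehicle libraries (difference 0.27, n = 10 each, exact two-sided permutation p = 0.00482, adjusted p = 0.0675). Leaving out 1 library at a time gave differences of 0.23 to 0.31 for it, with adjusted exact permutation p of 0.0225 to 0.189. It passed without HT vehicle female replicate 1, HT vehicle female replicate 5 or HT vehicle male replicate 4.

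The genes Scn3a, Scn2a and Scn1a lie within 983723 bases of chromosome 2 (GRCm38; Scn3a chr2:65457118-65567627 on the minus strand, Scn2a chr2:65620771-65767447 on the plus strand, Scn1a chr2:66270778-66440840 on the minus strand). Scn8a is at chr15:100869858-101045938, plus strand. The beta subunit genes Scn2b (chr9:45117782-45130070) and Scn4b (chr9:45138395-45154152) are neighbours 8324 bases apart, and Scn3b (chr9:40269217-40291618) and Fgf14 (chr14:123977907-124677127, minus strand) stand alone. The alpha subunits are similar in sequence: of the distinct stretches of 31 bases in Scn2a transcripts, 6.42% also occur in Scn3a and 0.17% in Scn8a, and of those in Scn1a 4.89% occur in Scn2a. Reads from these stretches could be shared out between the genes in the authors' estimate, so the split among Scn1a, Scn2a and Scn3a is the least certain. Gm13630, opposite Scn1a, averaged 33.4, and Gm49069, on the strand of Fgf14, averaged 27.3, against means of 5057 for Scn1a and 1265 for Fgf14.

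Scn8a, Scn1a and Scn2a are the 3 members higher with fluoxetine in WT mice, and their promoters are shown to compare what lies before their starts (250 bases upstream of the first listed start, RefSeq, GRCm38.p6, 5′ to 3′ on the gene's strand, CG pairs in capitals).
Scn8a, chr15:100870395-100870644, plus strand: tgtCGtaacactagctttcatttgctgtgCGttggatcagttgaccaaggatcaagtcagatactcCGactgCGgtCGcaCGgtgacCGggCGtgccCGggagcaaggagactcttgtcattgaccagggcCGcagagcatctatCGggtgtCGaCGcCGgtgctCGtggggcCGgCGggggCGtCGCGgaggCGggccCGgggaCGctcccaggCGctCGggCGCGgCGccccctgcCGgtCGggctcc
Scn1a, chr2:66440838-66441087, minus strand: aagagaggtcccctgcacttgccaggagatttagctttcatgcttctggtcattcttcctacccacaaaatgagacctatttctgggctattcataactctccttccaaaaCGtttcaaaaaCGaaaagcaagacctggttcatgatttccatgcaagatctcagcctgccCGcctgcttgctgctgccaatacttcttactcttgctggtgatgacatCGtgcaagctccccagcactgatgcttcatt
Scn2a, chr2:65620519-65620768, plus strand: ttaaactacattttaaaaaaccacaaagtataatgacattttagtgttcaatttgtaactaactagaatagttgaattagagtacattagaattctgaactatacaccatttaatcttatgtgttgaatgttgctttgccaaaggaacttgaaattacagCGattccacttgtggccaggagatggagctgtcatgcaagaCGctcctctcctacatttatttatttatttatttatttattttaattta
The Scn8a window was rich in G and C (68.0%, 30 CG pairs), more than in 87.8% of the 32851 mouse windows of the same kind, the Scn1a window held 46.8% and 4 pairs, and the Scn2a window only 29.6% and 2 pairs, less than nearly all windows (1.30% had a lower share). None of the 3 windows held, on either strand, the GC box GGGCGG (present in 32.7% of all windows), the TATA box TATAAA (12.4%), the E-box CACGTG (6.02%) or the cyclic AMP response element TGACGTCA (1.55%) or the shorter motif TGACG that lies within it (17.8%). The absence of these letters from a window says nothing of any factor. Which start is used in these libraries was not measured, and Scn8a and Scn2a each have another listed start. The windows before those other starts did not differ in this way, as each held 53.2% G and C and 9 CG pairs. The other Scn2a window held 1 TATA box, and the other Scn8a window none of these motifs. Of the 8 genes 6 had an entry.

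Scn8a was the member that changed most often with the drugs. Its normalized value ran over 12851, 14516 and 16084 (lowest, median and highest) in HT fluoxetine and 12854, 14471 and 15880.3 in WT fluoxetine libraries. It was 13351, 14074 and 14830.4 in HT lithium and 11272, 12827 and 14282 in WT lithium libraries, and 10627, 13044 and 14320.1 in HT vehicle and 10386, 12591 and 14186 in WT vehicle libraries. The groups overlapped throughout, but both fluoxetine groups and HT lithium had their lowest library near or above the median of vehicle, with 9 of 10 HT fluoxetine, 9 of 9 WT fluoxetine and 10 of 10 HT lithium libraries above the median of their own vehicle group. Only 7 of 10 WT lithium libraries were.

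In the limma test over all genes, Scn8a was higher with fluoxetine in HT mice (log2 change 0.19, SE 0.04, adjusted p = 0.0020) and in WT mice (0.23, SE 0.04, adjusted p = 0.00024), and higher with lithium in HT mice (0.15, SE 0.04, adjusted p = 0.035). With lithium in WT mice its change was 0.05 (SE 0.04, adjusted p = 0.68). The lithium change was not shown to differ between genotypes (HT minus WT 0.10, 95% interval -0.02 to 0.22, adjusted p = 0.76). Nor was the fluoxetine change (-0.04, 95% interval -0.16 to 0.09, adjusted p = 0.91). Of all genes 0% were called in either difference. The lithium call in HT mice was fragile: over the libraries left out 1 at a time the log2 change was 0.12 to 0.18 and the limma adjusted p 0.00471 to 0.11. It did not pass without HT lithium female replicate 2, 3 or 5, HT lithium male replicate 3 or 4, HT vehicle female replicate 3 or 4, or HT vehicle male replicate 3 or 5. Without HT vehicle female replicate 1, Scn1a passed beside it (0.20, adjusted p = 0.0436). The fluoxetine and lithium comparisons within a genotype share their vehicle libraries.

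**Figure D2:**
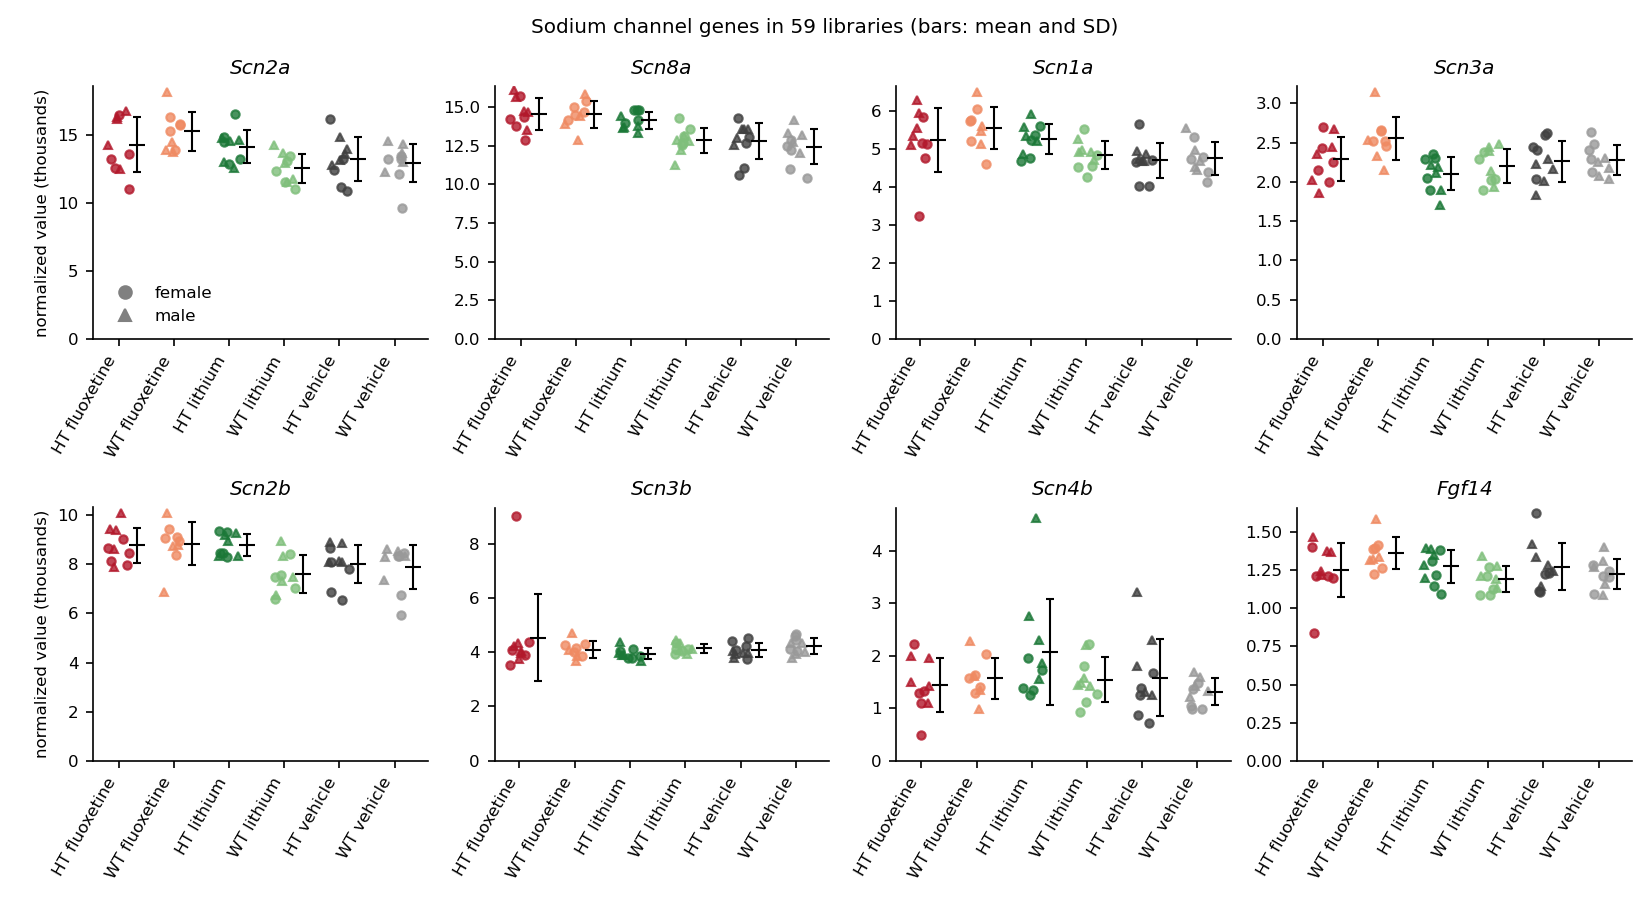
Normalized value of each gene, on axes divided by 1e3, in every library, female as circles and male as triangles, with the mean and SD of each group beside the points. Scn8a is high in both fluoxetine groups and HT lithium, and 1 HT fluoxetine female library holds the highest Scn3b value, 9052.

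Scn2a, at 13761, 15272 and 18172 in WT fluoxetine libraries and 9619, 13265 and 14559 in WT vehicle libraries (lowest, median and highest), was also higher with fluoxetine in WT mice (log2 change 0.24, SE 0.07, limma adjusted p = 0.0145). All 9 WT fluoxetine libraries were above the WT vehicle median and 5 above the highest WT vehicle library. In HT mice Scn2a was at 11023, 13925 and 16789 with fluoxetine, against 10855, 13199 and 16154 with vehicle, and 7 of 10 libraries were above the vehicle median. Its change there was 0.11 (SE 0.07, adjusted p = 0.31), and with lithium 0.10 in HT mice (SE 0.07, adjusted p = 0.41) and -0.04 in WT mice (SE 0.07, adjusted p = 0.86).

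Scn1a followed the same outline. It was at 4609.8, 5606 and 6502 in WT fluoxetine libraries and 4125, 4717 and 5561 in WT vehicle libraries, with 8 of 9 above the WT vehicle median, and was higher with fluoxetine in WT mice (log2 change 0.23, SE 0.07, limma adjusted p = 0.019). In HT mice it was at 3230.1, 5262 and 6301 with fluoxetine, against 4022, 4700.3 and 5662 with vehicle. The lowest of these values, 3230.1, is that of HT fluoxetine female replicate 2. The change in HT mice was 0.14 (SE 0.07, adjusted p = 0.16) with all libraries and 0.21 without that library (adjusted p = 0.0085).

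With all libraries, Scn3a passed in neither genotype. It was at 1862, 2303 and 2702 in HT fluoxetine and 1829, 2261 and 2625 in HT vehicle libraries, and at 2155, 2525 and 3148 in WT fluoxetine and 2041, 2271 and 2635 in WT vehicle libraries. Its change with fluoxetine was 0.02 in HT mice (SE 0.06, limma adjusted p = 0.91) and 0.16 in WT mice (SE 0.07, adjusted p = 0.099). With lithium it was -0.11 in HT mice (SE 0.06, adjusted p = 0.36) and -0.05 in WT mice (SE 0.06, adjusted p = 0.82). The groups overlapped in each case. Without WT fluoxetine male replicate 2 the fluoxetine change in WT mice passed (0.20, adjusted p = 0.0423). With the length slope of each library, described with transcript length, as a covariate, the Scn3a change with fluoxetine in HT mice was -0.21 (adjusted p = 0.0253). That slope nearly separated HT fluoxetine from HT vehicle libraries, so this fit can hardly tell a drug change from the length trend.

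With all libraries, no beta subunit passed with either drug against vehicle. Scn2b was at 7882, 8656 and 10091 in HT fluoxetine, 8299.5, 8713 and 9359.9 in HT lithium and 6569, 8103 and 8915 in HT vehicle libraries, and all 10 HT lithium libraries were above the HT vehicle median. Its log2 change in HT mice was 0.13 with fluoxetine (SE 0.06, limma adjusted p = 0.13) and 0.14 with lithium (SE 0.06, adjusted p = 0.16). In WT mice it was 0.16 with fluoxetine (SE 0.06, adjusted p = 0.066), where 7 of 9 libraries were above the highest vehicle library, and -0.05 with lithium (SE 0.06, adjusted p = 0.78). Over the libraries left out 1 at a time the fluoxetine change of Scn2b in WT mice was 0.12 to 0.21. It passed without WT fluoxetine male replicate 1 (adjusted p = 0.0109) or WT vehicle female replicate 3, 4 or 5 (adjusted p = 0.0384, 0.0433 and 0.0426).

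Scn3b varied little outside 1 library. It was at 3676 to 4398 in HT lithium and 3745 to 4525 in HT vehicle libraries, and its changes with either drug lay between -0.05 and 0.10, none of which passed. The value 0.10 was that of fluoxetine in HT mice, where Scn3b reached 9052 in HT fluoxetine female replicate 2, and without that library it was -0.02 (adjusted p = 0.776). Scn4b varied most, with a coefficient of variation of 39.8% over all libraries against 9.35% for Scn8a. It ran over 1248 to 4619 in HT lithium and 718.0 to 3218 in HT vehicle libraries, and its change with lithium in HT mice, 0.41 (SE 0.20, adjusted p = 0.24), did not pass. The 12 striatum markers, which Scn4b followed across libraries, summed to 11743 to 30296 in HT lithium and 10332 to 27374 in HT vehicle libraries.

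Fgf14, whose product binds the tail of the alpha subunits and keeps channels at the axon initial segment, was at 1228, 1337 and 1587 in WT fluoxetine and 1089, 1232 and 1402 in WT vehicle libraries. Its change was 0.15 (SE 0.07, limma adjusted p = 0.11), with 8 of 9 libraries above the vehicle median. In HT mice it was -0.03 with fluoxetine (SE 0.06, adjusted p = 0.82; 0.03 without HT fluoxetine female replicate 2) and 0.01 with lithium (SE 0.06, adjusted p = 0.96). The fluoxetine change of Fgf14, HT minus WT, was -0.18 (95% interval -0.36 to 0.00, adjusted p = 0.66).

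**Figure D3:**
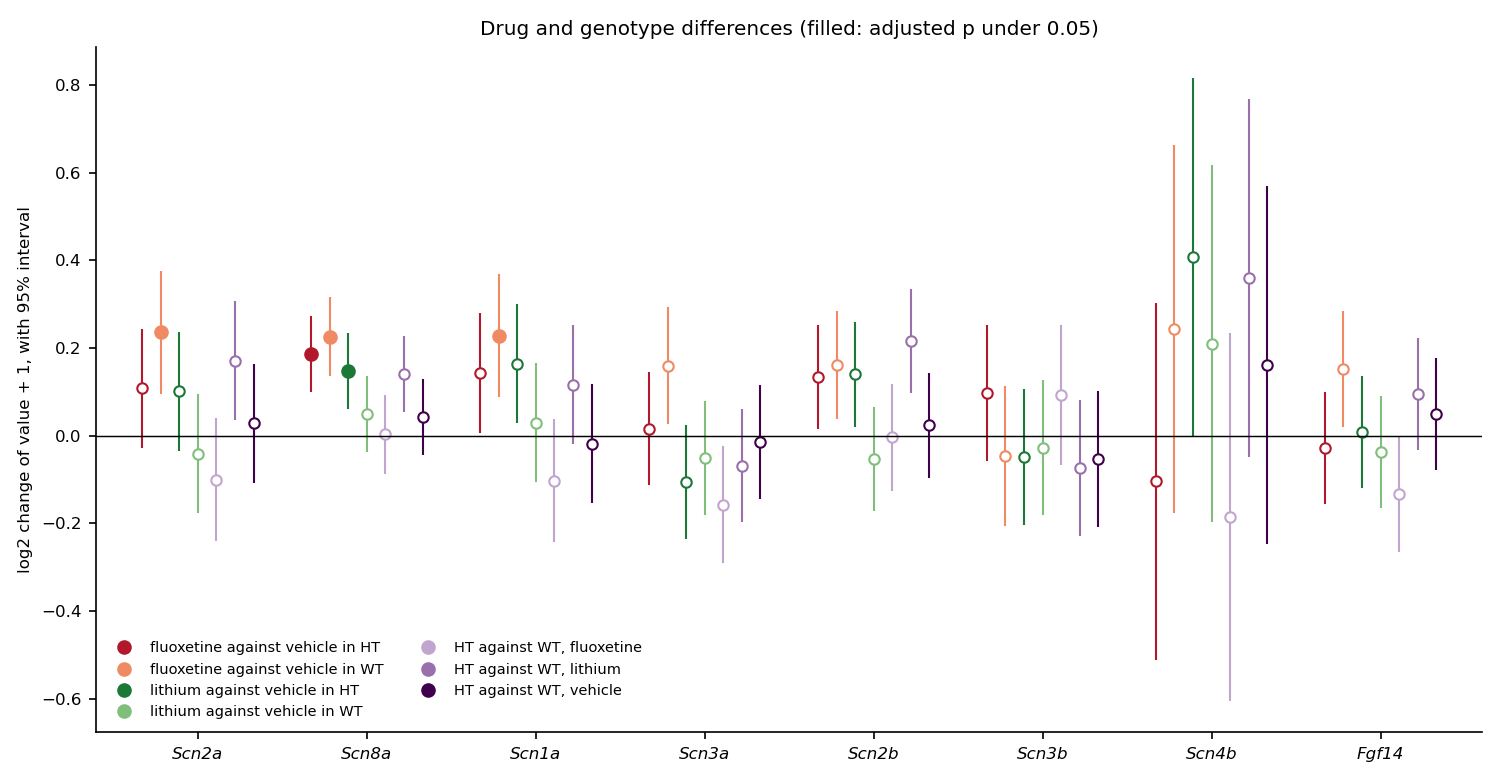
Log2 change of each gene in 4 drug and 3 genotype comparisons, with 95% intervals. Filled points passed the limma test at an adjusted p under 0.05, and these are Scn2a, Scn8a and Scn1a with fluoxetine in WT mice, Scn8a with fluoxetine in HT mice and Scn8a with lithium in HT mice.

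Counted together, 1 of 8 members was called with fluoxetine in HT mice, where 14% of all genes tested were called (6.63% higher), and 3 of 8 in WT mice, where 14.8% were (7% higher). All of these members were higher. With lithium 1 of 8 was called in HT mice (5.01% of all genes, 2.75% higher) and 0 of 8 in WT mice (2.22%), where none had an unadjusted limma p under 0.05. The median log2 change of the 8 was 0.10 with fluoxetine in HT mice and 0.19 in WT mice, and 0.12 and -0.03 with lithium in HT and WT mice, with all-gene medians at 0.00 in each. Without WT fluoxetine male replicate 4, the highest of its group in Scn2a and Scn1a, the count in WT mice was 1, Scn8a, and Scn2a and Scn1a had log2 changes of 0.19 (adjusted p = 0.0691 and 0.0686). Without HT fluoxetine female replicate 2 the count in HT mice was 2, Scn8a and Scn1a.

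These counts have to be read beside transcript length, because long mRNAs as a class were higher with fluoxetine. The 4 alpha subunits have longest transcripts of 8386 to 11436 bases. Of the 793 genes with transcripts of 8000 bases or more and a mean of at least 250, 22.7% were called higher with fluoxetine in HT mice and 43.0% in WT mice, with median log2 changes of 0.08 and 0.14. Of the 427 genes under 1000 bases at the same minimum, 2.58% and 1.64% were called higher, with medians of -0.18 and -0.21. With lithium the long genes had medians of 0.04 in HT and 0.02 in WT mice.

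The alpha subunits, of which 1 of 4 was called in HT mice and 3 of 4 in WT mice, belong to a class with these shares, and 4 genes are too few to set apart from it. The slope of log2 deviation on log2 transcript length, a property of each library, ran over 0.0266 to 0.0971 in WT fluoxetine and -0.0614 to -0.0138 in WT vehicle libraries, with no overlap. In HT mice it ran over -0.0130 to 0.0681 with fluoxetine and -0.0662 to 0.0735 with vehicle, so these ranges overlapped. The highest vehicle value was that of HT vehicle female replicate 1, and the other HT vehicle libraries were at -0.0124 or less. The lowest fluoxetine value was that of HT fluoxetine male replicate 4, and the other HT fluoxetine libraries were at 0.0154 or more. After the trend with length and GC content was removed in each library, no member passed with either drug against vehicle. Scn8a then had log2 changes of 0.09 with fluoxetine in both HT and WT mice (adjusted p = 0.155 and 0.270), and of 0.12 with lithium in HT mice (adjusted p = 0.103). In HT lithium over WT vehicle, a comparison described further on, it still passed (0.14, adjusted p = 0.0355). In WT mice fluoxetine and the length trend went together in every library and cannot be told apart. In HT mice they went together save in HT vehicle female replicate 1 and HT fluoxetine male replicate 4, so there too they can hardly be told apart.

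**Figure D4:**
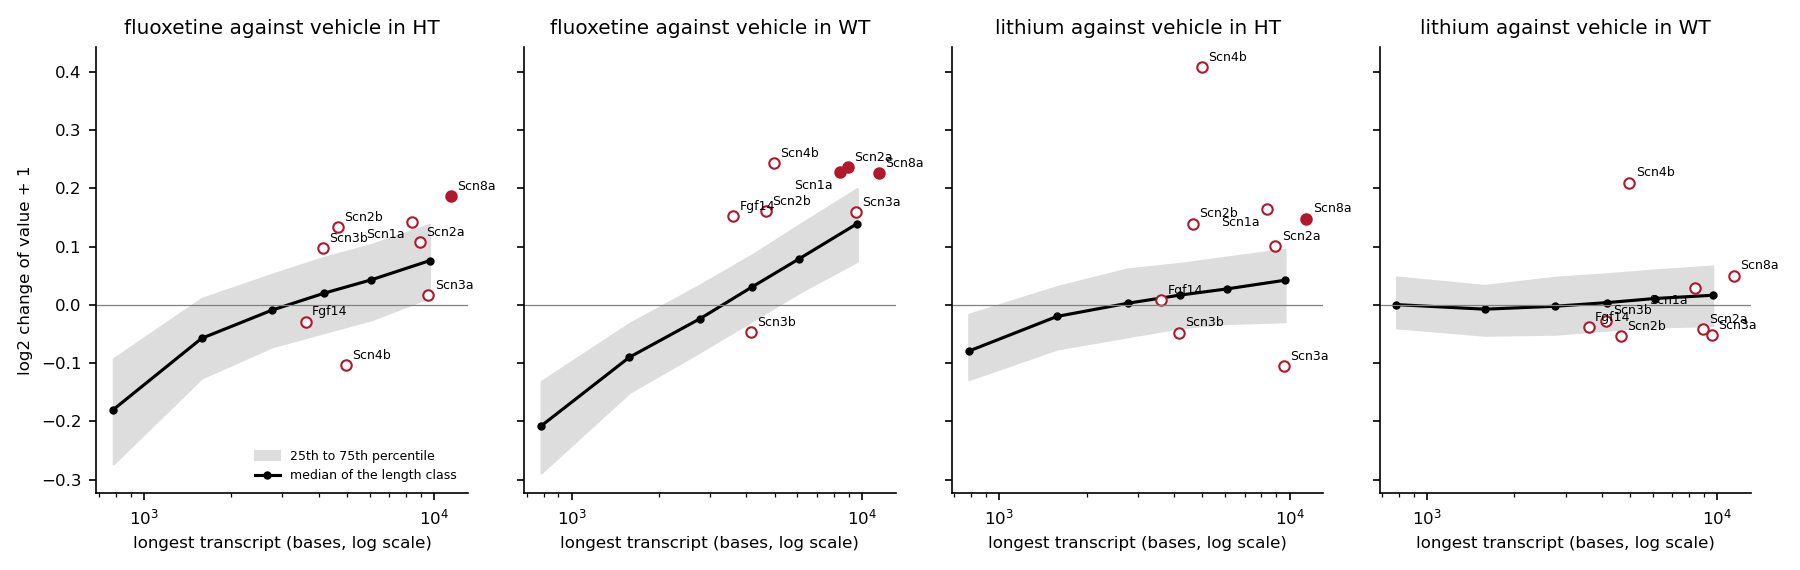
Median log2 change (line) and 25th to 75th percentile (band) of genes in 6 classes of transcript length, with the 8 members as points, filled where called. With fluoxetine the line climbs with length in both genotypes, and the alpha subunits lie at the long end, Scn8a, Scn1a and Scn2a above its median.

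Genotype alone moved no member past the test. In vehicle mice, where 0.00591% of all genes tested were called (1 gene, Ank2), 0 of 8 members were called by limma and 0 had an unadjusted p under 0.05. Scn8a was at 0.04 (95% interval -0.04 to 0.13), Scn2a at 0.03 (-0.11 to 0.16), Scn1a at -0.02 (-0.15 to 0.12) and Scn2b at 0.02 (-0.10 to 0.14) in HT over WT, and 7 of 10 HT libraries were above the WT median in Scn8a and 4 of 10 in Scn2a. Under fluoxetine (0.0118% of genes called) 0 of 8 were called, with 2 at an unadjusted p under 0.05. Over the libraries left out 1 at a time, Scn3a was at -0.19 to -0.10 and Fgf14 at -0.17 to -0.07, and neither passed. Scn4b, which was not among the 2, was at -0.19 (SE 0.21, adjusted p = 0.71). Without HT fluoxetine female replicate 2, Scn4b was at -0.03 and Scn1a, at -0.10 with all libraries, was at -0.03. Under lithium (0.55% of genes called) 0 of 8 were called, with 3 at an unadjusted p under 0.05.

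Those 3 under lithium were Scn2b (log2 difference 0.22, SE 0.06, adjusted p = 0.073), Scn8a (0.14, SE 0.04, adjusted p = 0.10) and Scn2a (0.17, SE 0.07, adjusted p = 0.20). Scn2b was at 8299.5, 8713 and 9359.9 in HT lithium and 6576, 7481 and 8971 in WT lithium libraries, so that all 10 HT libraries were above the WT median while the ranges overlapped. When only the libraries of these groups entered the model, Scn8a (adjusted p = 0.0189) and Scn2b (adjusted p = 0.0219) passed. The 0.55% of genes called is from the fit on all 59 libraries, and the share of that smaller model is not given here. Scn2b also passed without WT lithium female replicate 4 (adjusted p = 0.0373) or WT lithium male replicate 3 (adjusted p = 0.0347), and in the fit without the 3 libraries that stood apart (adjusted p = 0.0288). The lithium change of Scn2b was 0.19 larger in HT than in WT mice (95% interval 0.02 to 0.36, adjusted p = 0.69), which did not pass.

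Against vehicle-treated wild type, Scn8a was higher in HT fluoxetine (log2 change 0.23, SE 0.04, limma adjusted p = 0.00012) and HT lithium libraries (0.19, SE 0.04, adjusted p = 0.0049). It was the single member of 8 called in each, where 18.8% and 7.91% of all genes were (9.05% and 4.16% higher). Of the 10 HT fluoxetine libraries 7, and of the 10 HT lithium libraries 4, exceeded the highest WT vehicle library. These comparisons share the WT vehicle libraries with each other and with those above. Without HT fluoxetine female replicate 2, Scn1a (0.19, adjusted p = 0.013) and Scn2b (0.17, adjusted p = 0.046) passed as well in HT fluoxetine over WT vehicle, and the count was 3. There Scn2b also passed without HT fluoxetine male replicate 5 or WT vehicle female replicate 3, 4 or 5. In HT lithium over WT vehicle, a second member passed without WT vehicle female replicate 3 or 5 (Scn2b) or HT lithium male replicate 2 (Scn4b), and both passed in the fit without the 3 libraries that stood apart (adjusted p = 0.0401 for Scn2b and 0.0313 for Scn4b).

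Set against each other in WT mice, fluoxetine gave higher values than lithium for 6 of 8 members (21.3% of all genes were called, 10.1% higher): Scn1a, Scn2a, Scn3a, Scn8a, Scn2b and Fgf14. The largest was Scn2a, at 15259 ± 1450.4 in WT fluoxetine (SD, n = 9) and 12562 ± 1073 in WT lithium libraries (SD, n = 10), a log2 difference of 0.28 (SE 0.07, limma adjusted p = 0.0026). Of the 793 long genes 41.5% were called higher in the same comparison. Over the libraries left out 1 at a time 4 to 6 members passed, with Scn2a, Scn8a and Scn2b in every fit. Scn1a did not pass without WT fluoxetine female replicate 1, 3 or 4, WT fluoxetine male replicate 4, WT lithium female replicate 1, 2 or 3, or WT lithium male replicate 2 (adjusted p up to 0.11). Fgf14 did not pass without WT fluoxetine female replicate 3 or 5, WT fluoxetine male replicate 4, WT lithium female replicate 1 or 2, or WT lithium male replicate 1 (adjusted p up to 0.102), and Scn3a without WT fluoxetine male replicate 1 (adjusted p = 0.0795). In HT mice 0 of 8 were called between the drugs (13.1% of all genes), with 1 at an unadjusted limma p under 0.05, Scn4b at -0.51 (SE 0.20, adjusted p = 0.0849). It passed without HT fluoxetine female replicate 1 or HT lithium male replicate 2.

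In females alone, Scn8a was higher with fluoxetine in HT mice (log2 change 0.21, SE 0.06, limma adjusted p = 0.028) and in WT mice (0.33, SE 0.06, adjusted p = 0.00043), and with lithium in HT mice (0.24, SE 0.06, adjusted p = 0.0151). Of all genes 8.75%, 8.56% and 4.45% were called in these comparisons of females. Scn2a (0.33, adjusted p = 0.0225) and Scn2b (0.26, adjusted p = 0.0375) also passed with fluoxetine in WT females. In males 0 members passed by limma with fluoxetine in HT or WT mice or with lithium in HT mice, with 2, 2 and 0 at an unadjusted p under 0.05 and 3.36%, 5.3% and 0.0177% of all genes called. Scn8a was at 0.17 and 0.12 with fluoxetine in HT and WT males and at 0.05 with lithium in HT males. The sexes were not shown to differ. The Scn8a change, female minus male, was 0.04, 0.21 and 0.19 in the same order (adjusted p = 0.93, 0.54 and 0.56), with 0% of all genes called in each of these differences. The largest such difference of Scn8a was with lithium in WT mice, 0.24 (SE 0.09, unadjusted p = 0.00706, adjusted p = 0.29, 0% of all genes called). Its lithium change there was 0.17 in females (SE 0.06, adjusted p = 0.15) and -0.07 in males (SE 0.06, adjusted p = 0.72), so the value of 0.05 over both sexes averages opposite signs. The length slope of each library, described with transcript length, also split by sex with lithium in HT mice. It ran over 0.0003 to 0.064 in HT lithium females and -0.0681 to -0.0227 in HT lithium males. In HT vehicle libraries it ran over -0.0343 to 0.0735 in females and -0.0662 to -0.0141 in males. Its part in the Scn8a changes by sex was not tested. Female over male, no member was called (2.1% of all genes; 3 members at an unadjusted limma p under 0.05). Scn4b had the largest difference, -0.38 (SE 0.12, adjusted p = 0.0713), and passed without HT fluoxetine female replicate 1, WT fluoxetine male replicate 1 or WT lithium female replicate 5.

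Among related genes outside the 8, Scn9a, an alpha subunit gene of sensory neurons, and Fgf13, a fibroblast growth factor homologous factor like Fgf14, did not pass with fluoxetine against vehicle. Scn9a was at 0.26 in HT mice (SE 0.14, limma adjusted p = 0.212) and 0.21 in WT mice (SE 0.14, adjusted p = 0.362), and Fgf13 at 0.15 in HT mice (SE 0.06, adjusted p = 0.0664) and 0.01 in WT mice (SE 0.06, adjusted p = 0.916). In HT fluoxetine over WT vehicle, Scn9a (0.40, SE 0.14, adjusted p = 0.0347) and Fgf13 (0.18, SE 0.06, adjusted p = 0.0171) were higher.

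Among 16 genes that anchor channels at the axon initial segment and nodes, 7 were higher with fluoxetine in HT mice (6.63% of all genes were), 6 in WT mice (7% of all genes) and 2 with lithium in HT mice (2.75% of all genes), and 0 by limma with lithium in WT mice, where 0 had an unadjusted p under 0.05. Ank3, whose product ankyrin-G assembles the initial segment, was higher with fluoxetine in HT (0.25, SE 0.04, limma adjusted p = 1.46e-05) and WT mice (0.31, SE 0.04, adjusted p = 4.16e-07). So was Tnr, an extracellular matrix protein around nodes, at 0.29 and 0.25 (SE 0.05 each, adjusted p = 6.92e-05 and 0.00051), and Ank2 itself, at 0.14 and 0.20 (SE 0.04 each, adjusted p = 0.010 and 0.00035). Cntnap1, a paranodal junction protein, was higher in HT mice with fluoxetine (0.20, SE 0.06, adjusted p = 0.016) and lithium (0.23, SE 0.06, adjusted p = 0.020). Under lithium Ank3 was also higher in HT than in WT libraries (0.22, SE 0.04, adjusted p = 0.0063). Many of these genes are long, and of the 793 long genes 22.7% were higher with fluoxetine in HT mice and 43.0% in WT mice.

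Of 28 genes that regulate the channels or their mRNAs, 6 were higher and 1 lower with fluoxetine in HT mice, where 14% of all genes were called and 6.63% were higher, and 7 were higher in WT mice, where 14.8% were called and 7% were higher, with 0 called by limma for lithium in either genotype (4 at an unadjusted p under 0.05 in each). Prkca, a protein kinase C isoform whose family phosphorylates the channels, was higher in HT (0.16, SE 0.05, adjusted p = 0.017) and WT mice (0.19, SE 0.05, adjusted p = 0.0053). Celf4, an RNA-binding protein, was at 0.11 and 0.14 (adjusted p = 0.0086 and 0.00072). The pumilio gene Pum2, whose product represses sodium channel mRNAs, was higher in WT mice (0.16, SE 0.03, adjusted p = 0.00032). Calm2, 1 of the calmodulin genes, was lower in HT mice (-0.17, SE 0.04, adjusted p = 0.0021).

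Across the 59 libraries, after the mean of each of the 12 groups was taken off, the members moved in blocks. Scn8a and Scn2b had r = 0.82, Scn2a and Fgf14 r = 0.86 and Scn1a and Scn4b r = 0.78, while Scn3a had r = -0.47 with Scn2b and Scn3b had r = -0.60 with Scn1a. These are descriptions over libraries that share their tissue composition. Among 12770 protein-coding genes with a mean of at least 50, the closest to Scn8a was Cnksr2 (r = 0.88), to Scn2a Gpr158 (0.93), to Scn1a Plcb1 (0.92) and to Scn3a Kif2a (0.83). The closest to Scn2b was Tppp (0.92), to Scn4b Oprk1 (0.85) and to Fgf14 Ppp1r9a (0.91). For Scn3b it was Gria1, at 0.92 with all libraries and 0.80 without HT fluoxetine female replicate 2.

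Levels of marker lists moved with several members within groups, in 40 relations tested by permutation. Scn4b followed the striatum markers (Pearson r = 0.78, adjusted permutation p = 5e-05; Spearman rho = 0.68, adjusted permutation p = 7.27e-05; r = 0.74 without the 2 farthest libraries). Scn3a followed the olfactory bulb markers (r = 0.60, adjusted permutation p = 0.0002; rho = 0.61, adjusted permutation p = 0.000133; r = 0.57 without the 2 farthest) and opposed the excitatory neuron markers (r = -0.55, adjusted permutation p = 0.000373; rho = -0.63, adjusted permutation p = 9.23e-05; r = -0.58). Scn3b opposed the excitatory neuron markers too (r = -0.65, adjusted permutation p = 0.000424, and r = -0.50 without the 2 farthest). The olfactory bulb markers were opposed by Scn8a (r = -0.52, adjusted permutation p = 0.0002) and Scn2b (r = -0.55, adjusted permutation p = 7.27e-05). Scn2a opposed them less (r = -0.32, adjusted permutation p = 0.0463).

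Scn8a (r = 0.71; rho = 0.65) and Scn2b (r = 0.76; rho = 0.69) followed the excitatory markers (adjusted permutation p = 5e-05 for r and 7.27e-05 for rho in both), with r = 0.75 and 0.78 without the 2 farthest libraries. Fgf14 (r = 0.69), Scn2a (0.63), Scn1a (0.58) and Scn4b (0.48) followed them as well, each at an adjusted permutation p of 0.00364 or less. Scn1a followed the parvalbumin interneuron markers (r = 0.74, adjusted permutation p = 5e-05; rho = 0.65, adjusted permutation p = 7.27e-05; r = 0.64 without the 2 farthest). So did Scn2b (r = 0.67), Scn4b (0.66), Fgf14 (0.64), Scn2a (0.62) and Scn8a (0.59), each at an adjusted permutation p of 0.0001 or less, and without the 2 farthest libraries Scn2b (0.71), Scn8a (0.68) and Scn2a (0.66) had a higher r than Scn1a. This list held Pvalb, Syt2, Kcnc1, Kcnc2, Gad1, Gad2, Tac1, Cox6a2, Erbb4 and Lhx6. Gad1 was highest in WT vehicle female replicate 1, the library with the highest olfactory bulb level. Tac1 was highest in HT lithium male replicate 1, the library with the highest striatum level. The list level is thus not one of parvalbumin cells alone. In the relation of Scn3b with dentate gyrus markers (r = 0.81, adjusted permutation p = 0.038; rho = 0.47, adjusted permutation p = 0.0046) the size of r rests largely on 1 library, HT fluoxetine female replicate 2. Without HT fluoxetine female replicates 1 and 2 r was 0.52, so the relation was weaker but kept its sign.

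The levels of these lists also differed between drug and vehicle groups. The 7 olfactory bulb markers had a median log2 change of -1.02 with fluoxetine and -0.78 with lithium in HT mice. None of them was called by limma, and before adjustment 5 and 0 of them had a p under 0.05. The 10 excitatory neuron markers had medians of 0.08 and 0.13, with 2 and 1 of them called higher, where 6.63% and 2.75% of all genes were. In WT mice with fluoxetine these medians were -0.33 and 0.14, with no marker of either list called and 0 and 3 at an unadjusted limma p under 0.05. Of the 10 parvalbumin interneuron markers, 1 was lower with fluoxetine in HT mice (14% of all genes called, 6.63% higher). With fluoxetine in WT mice 4 were higher (14.8% called, 7% higher), and with lithium in HT mice 3 were higher (5.01% called, 2.75% higher). Their part in the changes of Scn8a was not tested beyond the covariate fits that follow. Excitatory markers summed to 169291 to 218978 in HT lithium and 153102 to 198306 in HT vehicle libraries. With the excitatory level, the olfactory bulb level, or the striatum and olfactory bulb levels as covariates, Scn8a no longer passed with lithium in HT mice: its log2 change, 0.15 without a covariate, was 0.10, 0.12 and 0.12 (adjusted p = 0.076, 0.065 and 0.056). With fluoxetine it passed in both genotypes under each of these covariates.

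**Figure D5:**
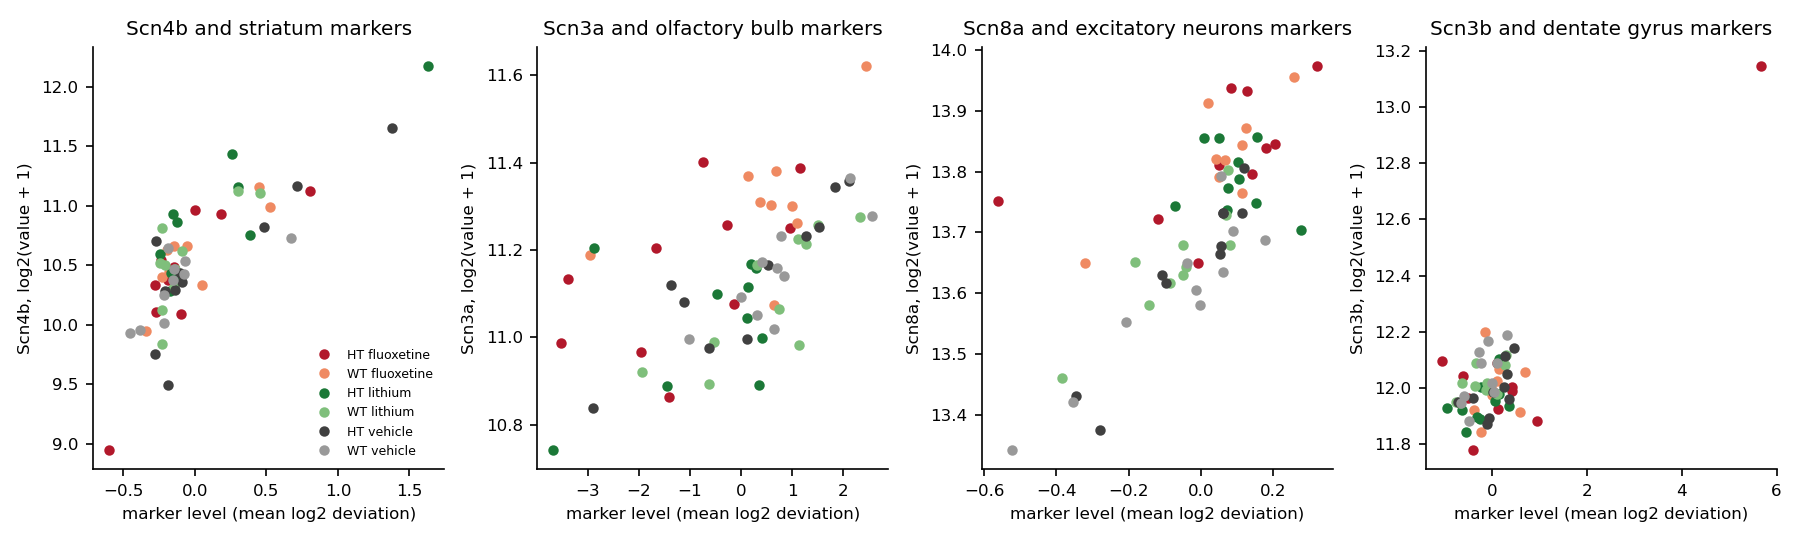
Log2(value + 1) of 4 members against the level of a marker list in the same library (mean log2 deviation from the mean of all libraries), 59 libraries colored by group. Scn4b climbs with striatum markers and Scn8a with excitatory neuron markers, and 1 HT fluoxetine library lies alone at the upper right of the Scn3b plot.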

How the data were processed

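RNA was measured by sequencing of libraries made with the TruSeq Stranded mRNA kit, as the labels' protocols state. The deposited values are a signal per gene: the authors' normalized estimated counts, not whole reads, made with Salmon 0.11.2, R 3.6.0 and DESeq2 1.19.11 on GRCm38, per the submitters' processing notes. Their settings and annotation release are not given in the sources used here. Within a tolerance of 0.1, 28.3% to 66.8% of low values per library were whole multiples of 1 read, so reads were not recovered and no count model was used.

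Each of the 59 libraries was placed in 1 of 12 groups of genotype, drug and sex by its labels, which tie no library to an animal or litter, so p-values measure the spread between libraries. The drugs were given to mothers, so libraries from the same litter would not be independent replicates of a drug. If groups held littermates, the p-values of drug comparisons could be too small. Values were analysed as log2(value + 1), a scale that understates changes of low genes, for the 16919 of 51456 identifiers with a mean of at least 10. limma 3.58.1 in R 4.3.3 (12 group means, 47 residual degrees of freedom, robust moderated variances with a mean trend) gave 19 comparisons, averaged over sexes, two-sided, with Benjamini-Hochberg adjustment over all genes tested and a threshold of 0.05. "Called" and "passed" mean an adjusted p under that threshold. Every adjusted p of a gene in the text is from this limma model unless another test is named. Ratios were tested by exact permutation within sex (14 tests), and relations to marker levels by 100000 permutations within groups (40 relations), adjusted within each family. The remaining steps used Python 3.11.15 with SciPy 1.17.1, NumPy 2.4.6 and pandas 2.3.3, and figures matplotlib 3.10.9. Gene positions and transcript lengths were from the GRCm38 annotation.

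The 8 members and the gene lists were chosen with earlier results of these data known. Genes named from lists are those that passed, or examples with their values. Alternatives were another pseudocount (5), no filter, rescaling, other sample sets, covariates for transcript length and tissue markers, a replicate block and leaving out each library. The covariates for olfactory bulb, striatum with olfactory bulb, and excitatory neuron levels, and the fit without the 3 libraries that stand apart, were chosen after seeing the data. Replicate numbers did not pair the libraries. Some genes of the lists are not reported here.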

Additional observations from a re-analysis of the deposited data

Results flagged for a closer look

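Of 96 sets of 4 or 5 libraries (8 genes in 12 groups), 6 held a library far from the others of its group. Chance flags about 1 in 20 such sets. Scn3b was 9052.38 in HT fluoxetine female replicate 2, against 3516.13 to 4379.87 in the other 4 libraries, and this is the library with choroid plexus and dentate gyrus markers. WT fluoxetine male replicate 4 had the highest Scn2a, 18171.7 against 13761.4 to 14470.3, and the highest Fgf14, 1587.1 against 1318.76 to 1337.06. Fgf14 was 1624.69 in HT vehicle female replicate 1, against 1110.59 to 1236.15 in the others. Scn4b was 2209.93 in WT lithium male replicate 3, against 1413.89 to 1572.22. Scn2b was lowest in WT vehicle male replicate 2, 7384.95 against 8296.46 to 8622.43.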

How the results depend on the processing

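Apart from leaving out single libraries, 263 of the counts and ratios stayed within their limits under the alternatives and 25 moved. Of the changes of single genes 1771 stayed, 140 moved, 35 lost their call, 18 gained one and 4 reversed. With the length and GC trend removed, the number of members called was 0 for fluoxetine in HT and WT mice, 0 for lithium in HT mice, 0 for HT fluoxetine over WT vehicle and 1 for fluoxetine over lithium in WT mice. The log2 ratio of Scn1a to Scn3a: HT against WT, vehicle, was then 4e-06. With the length slope as a covariate it was 0 for fluoxetine in WT mice, 0 for fluoxetine over lithium in WT mice and 2 for HT lithium over WT vehicle. Under this covariate 4 changes reversed, and the cause was not tested. The slope went largely with fluoxetine, so these fits can hardly tell a drug change from the length trend. Scn2a with fluoxetine in WT mice was -0.0195 (adjusted p = 0.959). Scn3a was -0.21 with fluoxetine in HT mice (adjusted p = 0.0253). The Scn3a log2 change: HT fluoxetine against WT vehicle, was -0.27 (adjusted p = 0.0067). Scn3a was -0.12 for fluoxetine over lithium in WT mice (adjusted p = 0.401).

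Without a filter on low values, or with the excitatory, olfactory bulb, or striatum and olfactory bulb levels as covariates, 0 members were called for lithium in HT mice. With the olfactory bulb level 5 were called for fluoxetine in WT mice and 1 for fluoxetine over lithium in HT mice. With the striatum and olfactory bulb levels, 1 was called for fluoxetine over lithium in HT mice and 0 for HT lithium over WT vehicle. With only the groups compared, 2 were called for HT over WT under lithium and 2 for HT lithium over WT vehicle, and with equal library sums 1 for HT over WT under lithium. Without the 3 libraries that stand apart, 2 were called for fluoxetine in HT mice, 3 for HT fluoxetine over WT vehicle, 3 for HT lithium over WT vehicle and 1 for HT over WT under lithium. The Scn8a to Scn2a ratio with fluoxetine in WT mice was then 0.0262. The shares of all genes called under these alternatives are not given here, so the counts of members have no background beside them.

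Over single libraries left out, the counts ran over 1 to 2 for fluoxetine in HT mice, 1 to 4 in WT mice, 0 to 2 for lithium in HT mice, 4 to 6 for fluoxetine over lithium in WT mice, 1 to 3 for HT fluoxetine and 1 to 2 for HT lithium over WT vehicle, and 0 to 1 for HT over WT under lithium, fluoxetine over lithium in HT mice and female over male. The Scn1a to Scn3a ratio ran over -0.0220 to 0.12 for HT over WT under fluoxetine, 0.23 to 0.31 for lithium in HT mice and -0.0403 to 0.0407 for HT over WT in vehicle. The Scn8a to Scn2a ratio ran over -7.63e-05 to 0.0356 for HT over WT in vehicle and -0.0231 to 0.0108 for fluoxetine in WT mice.

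Same-numbered libraries did not deviate together (mean r = 0.0039), and 12 of 59 correlated best with their own number. With a replicate block the counts were 3 for fluoxetine in WT mice, 1 in HT mice and 1 for lithium in HT mice, and the block changed no count of members.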
